A study of Mus musculus with 21 samples.

Results

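JAK2-V617F Ba/F3 cells that had been released from ruxolitinib were set against cells released from CHZ868, each relative to its own DMSO-wash control. For every gene, the ruxolitinib washout effect (mean of ruxo-wash minus mean of DMSO-wash, log2 CPM) was compared with the CHZ868 washout effect (mean of CHZ868-wash minus mean of its DMSO-wash), and the first minus the second is called the difference here. A positive difference means that the gene stood higher after ruxolitinib washout than after CHZ868 washout, relative to DMSO-wash. All 10078 genes held by both washout tables entered, of 14362 genes held by either of them. CPM scales the reads of a gene to a common library total, and a difference of 1 on the log2 scale is a change by a factor of 2 between both effects.

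Ba/F3 is a murine pro-B cell line that needs IL-3 to live, and it grows without the cytokine once it carries the constitutively active JAK2-V617F kinase. All cells compared here stably expressed JAK2-V617F. The 12 libraries came from 4 groups of 3: ruxo-wash cells, DMSO-wash cells of the same experiment, CHZ868-wash cells and the DMSO-wash cells of that second experiment. Ruxo-wash cells had 1 μM ruxolitinib for 1 h, then washes with PBS and 6 h in medium without inhibitor. The study's methods state these washout conditions for ruxolitinib only, and the same dose and times were assumed for CHZ868-wash cells. The other 9 libraries of the series, from cells kept in inhibitor or DMSO, were not used here. Each inhibitor was tested in its own experiment, with its own DMSO-wash cells and its own table, so the inhibitor and the experiment cannot be told apart. The sources do not say that the libraries of a group came from separate cultures, so the p-values measure the spread between these libraries, which may be technical.

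JAK2 passes the signal of cytokine receptors to STAT5, a transcription factor that is phosphorylated by the kinase, enters the nucleus and binds DNA. Its targets include the PIM kinases, feedback inhibitors of the SOCS family such as CISH, and survival genes of the BCL2 family. Ruxolitinib is a type I inhibitor, which binds the active conformation of the kinase and lets its activation loop remain phosphorylated, while CHZ868 is a type II inhibitor, which binds the inactive conformation. The study design asks which genes are upregulated in ruxo-wash and not in CHZ868-wash cells. The difference compares both effects directly, but it does not by itself answer that question. A positive value needs no rise in ruxo-wash cells and can also come from a fall in CHZ868-wash cells.

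A sequence that STAT dimers bind, TTCNNNGAA on both strands, was looked up in the promoters (250 bases before to 50 bases after the start, RefSeq on GRCm38.p6). Shown are the promoters of Cish, which carries 2 such matches in tandem, of Cebpb, whose promoter has none and whose difference had the smallest p among named protein-coding genes, and of Tmsb4x, which has none and led the lower side by p among protein-coding genes. They lie at chr9:107296409-107296708 (plus strand), chr2:167688665-167688964 (plus strand) and chrX:167209169-167209468 (minus strand). Capitals mark a match to TTCNNNGAA.
Cish: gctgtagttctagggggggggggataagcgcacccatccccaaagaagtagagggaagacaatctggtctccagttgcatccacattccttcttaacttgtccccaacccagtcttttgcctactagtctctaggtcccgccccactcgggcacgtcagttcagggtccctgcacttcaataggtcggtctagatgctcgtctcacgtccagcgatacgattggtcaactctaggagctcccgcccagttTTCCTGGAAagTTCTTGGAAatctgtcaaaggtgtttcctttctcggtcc
Cebpb: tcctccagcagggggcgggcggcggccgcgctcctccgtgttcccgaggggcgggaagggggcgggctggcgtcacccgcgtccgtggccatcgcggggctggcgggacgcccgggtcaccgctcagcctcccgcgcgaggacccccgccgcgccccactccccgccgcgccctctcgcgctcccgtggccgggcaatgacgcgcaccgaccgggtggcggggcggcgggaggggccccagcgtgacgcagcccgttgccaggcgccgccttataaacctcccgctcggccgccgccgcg
Tmsb4x: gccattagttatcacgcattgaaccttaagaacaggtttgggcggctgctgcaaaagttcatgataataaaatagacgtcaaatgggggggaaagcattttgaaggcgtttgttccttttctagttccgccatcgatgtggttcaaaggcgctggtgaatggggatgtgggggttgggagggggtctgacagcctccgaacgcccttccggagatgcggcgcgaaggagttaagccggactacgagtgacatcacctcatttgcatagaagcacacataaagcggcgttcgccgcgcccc
The GC content of these promoters was 53.3% for Cish, 80.7% for Cebpb and 52.7% for Tmsb4x.

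The difference passed the test for 191 genes, 1.90% of those measured (limma, Benjamini-Hochberg adjusted p under 0.05, termed called from here on). Of these, 98 were higher after ruxolitinib washout (0.972% of all genes) and 93 were lower (0.923%). Before adjustment, 1903 genes (18.9%) had a p under 0.05, of which 996 (9.9% of all genes) lay above and 907 (9.0%) below 0. The median absolute difference of the called genes was 0.58, or 1.49-fold, with 18 genes at 1 or more. The median difference of all genes was -0.01.

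Most called genes had a sizeable effect in the CHZ868 experiment and a small one in the ruxolitinib experiment. The median absolute CHZ868 washout effect of the 191 genes was 0.47 against a ruxolitinib washout effect of 0.09, and over all genes these medians were 0.17 and 0.08. The CHZ868 washout effect was the larger of both in 172 called genes, and in 69.7% of all genes. The effects had opposite signs in 166 called genes and in 50.8% of all genes. Calling genes by a large difference of both effects itself favors opposite signs and large effects. The contrast of called genes with all genes is therefore no separate result. Tested within its own table, CHZ868-wash differed from DMSO-wash in 413 of the 10078 genes (4.10%) and ruxo-wash in 3 (0.0298%). Among the 191 genes, 140 were called in the CHZ868 table and 2 in the ruxolitinib table (Anxa5 and Hba-a1). The median SD between libraries was 0.12 in the ruxolitinib experiment and 0.15 in the CHZ868 experiment, on the log2 scale.

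**Figure D1:**
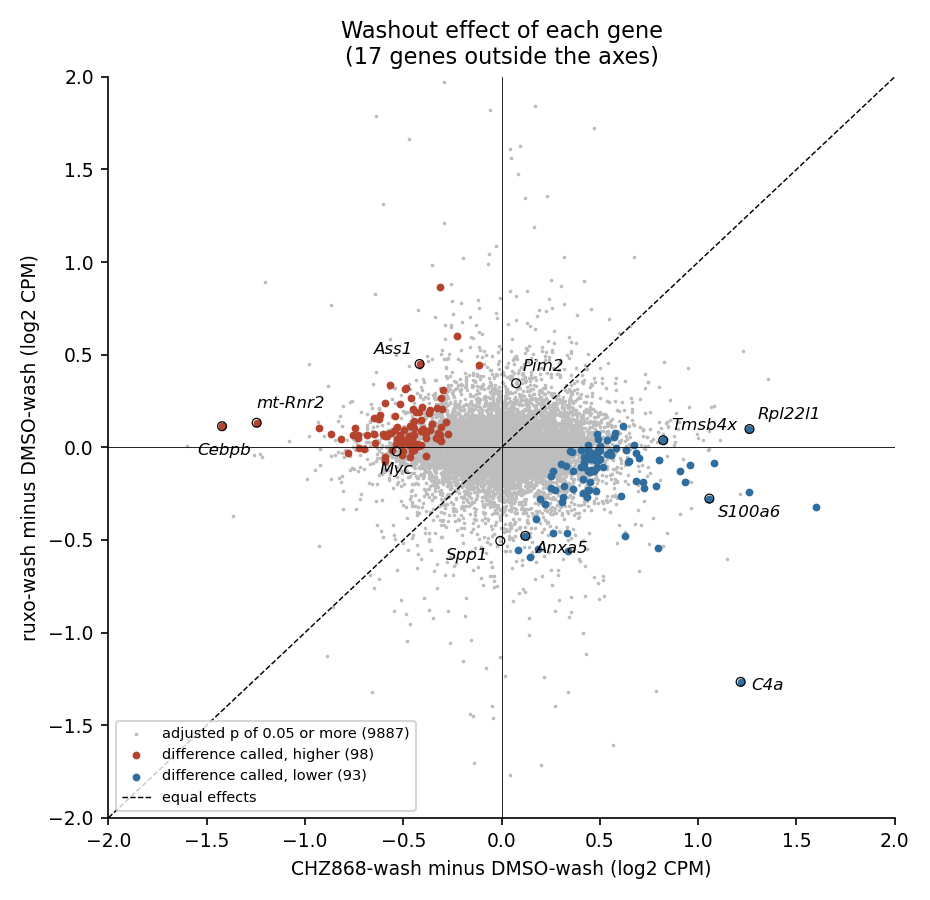
Washout effect of each of the 10078 genes (17 lie outside the axes) in log2 CPM, with CHZ868-wash minus DMSO-wash on the x axis and ruxo-wash minus DMSO-wash on the y axis. Red points are the 98 genes with a higher difference and blue points the 93 with a lower one, both spread along the x axis more than along the y axis, and the dashed line marks equal effects.

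Called genes with a positive difference were GC-rich and those with a negative difference were GC-poor. The median GC content of the longest transcript was 57.3% in the higher genes, 41.9% in the lower genes and 49.4% in all. When the genes were divided into 5 equal groups by GC content, the group of lowest GC content held 1 gene called higher and 60 called lower, and the group of highest GC content held 66 called higher and 1 called lower. Across 9995 nuclear genes, the rank correlation with GC content was 0.303 for the difference, -0.329 for the CHZ868 washout effect and 0.0549 for the ruxolitinib washout effect, a description over genes that share the same libraries. DMSO-wash libraries 2 and 3 of the CHZ868 experiment deviated from their group mean with GC content in opposite directions (rank correlations 0.353 and -0.362). Library 1 was at 0.144. Deviations from a group mean cancel out over its libraries, so 1 outlying library can set the others the opposite way. Every library was corrected for smooth trends on GC content and transcript length (termed GC correction below). The trends were fitted to deviations from the mean of all libraries of its experiment, inhibitor and DMSO-wash together. The correction thus also takes out any washout effect that follows GC content or length, and a call lost after it does not tell these apart. After it, 32 genes were called, of which 23 were among the 191, and 188 of the 189 called genes with a GC value kept their sign. The part of GC content in the differences was not tested further.

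**Figure D2:**
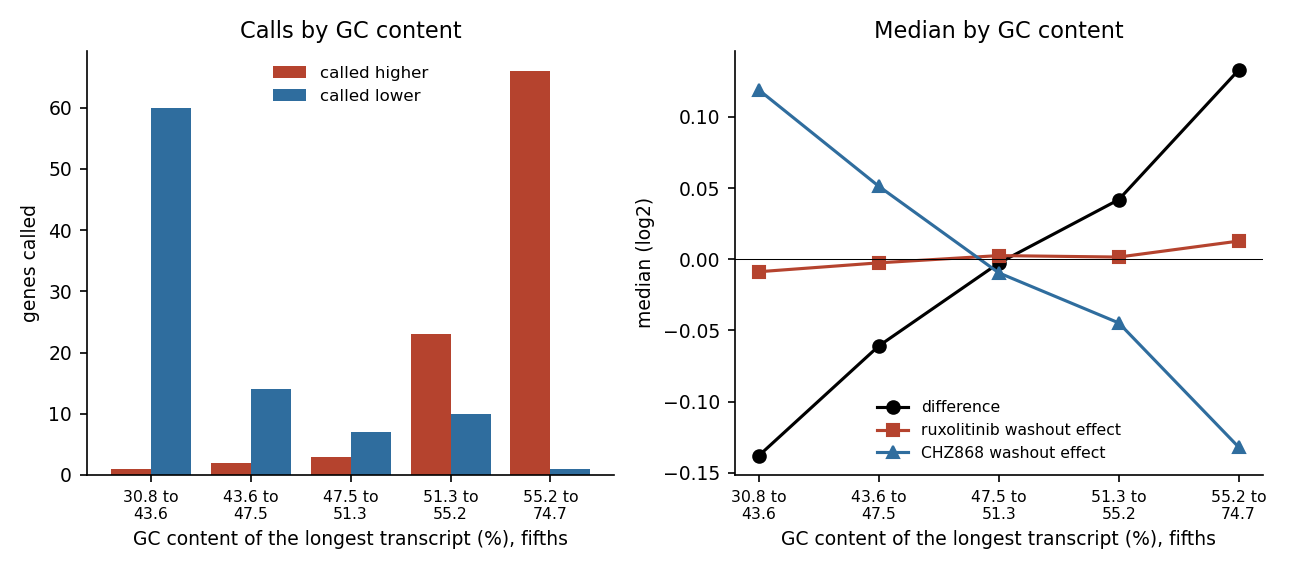
Genes called higher and lower (left, number of genes) and medians of the difference and of both washout effects (right, log2) in 5 equal groups of genes by GC content of the longest transcript in percent. Lower calls gather in the group of lowest GC content (60 genes) and higher calls in that of highest GC content (66 genes), and the median CHZ868 washout effect goes from 0.12 to -0.13 across the groups.

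The number of calls rested on single libraries. Without ruxo-wash library 1, 2 or 3 it was 18, 28 or 36 genes, and without library 1, 2 or 3 of its DMSO-wash it was 36, 12 or 9. It was 92, 11 or 5 without CHZ868-wash library 1, 2 or 3, and 12, 628 or 530 without DMSO-wash library 1, 2 or 3 of the CHZ868 experiment. All 191 genes were among the 628 and among the 530. The sign of the difference was the same in all 12 fits with a library left out for each of the 191 genes, but the call was kept in all 12 for 5 genes only, which were Gm35037, Cebpb, Gm50037, Zfpm1 and Jund. For 150 genes the call was kept in 3 or fewer of these fits. Values for each gene below are given with the number of the 12 fits that kept its call where that number bears on it.

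Cebpb, which encodes a leucine-zipper transcription factor of myeloid differentiation and acute inflammation, differed most clearly among protein-coding genes. It was measured at 176, 179 and 173 CPM in ruxo-wash and at 157, 173 and 158 CPM in its DMSO-wash, and at 10.9, 15 and 11.3 CPM in CHZ868-wash against 30.4, 38.7 and 31.4 CPM in DMSO-wash. The CHZ868-wash libraries all lay below their controls, while the ruxo-wash libraries lay at or just above the highest of theirs. The difference was 1.54 (95% interval 1.18 to 1.90, limma adjusted p = 0.00202), which is a ratio of both fold changes of 2.9. It ranged from 1.43 to 1.68 over the fits with a library left out and was 1.11 after GC correction (adjusted p = 0.00904). Cebpb lies at chr2:167688915-167690418 in the GENCODE annotation of GRCm38, overlapped on the other strand by Tmem189, whose reads cannot be told apart where counting does not use strand. Whether it did is not given in the sources used here. Among the genes named below, 4930539J05Rik, Jund, Bmyc, Tesk1, Rpl22l1, 4933434E20Rik, Gm28370, Pim1, Tgm2, Cish, Bcl2, Rpl28, Plek, Plk1 and Tnip1 are also overlapped by a gene on the other strand.

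Further transcription regulators stood on the same side. Jund, an AP-1 subunit, was measured at 133, 136 and 132 CPM in ruxo-wash against 130, 135 and 138 CPM, and at 52.5, 55.1 and 58.9 CPM in CHZ868-wash against 86.4, 99 and 85.9 CPM. Its ruxolitinib groups overlapped and its CHZ868 groups did not, with a difference of 0.69 (adjusted p = 0.0149). Zfpm1, the GATA cofactor FOG1, was measured at 498, 466 and 484 CPM in ruxo-wash against 475, 451 and 452 CPM, and at 447, 457 and 472 CPM in CHZ868-wash against 737, 658 and 768 CPM. It showed the same arrangement of groups, with a difference of 0.72 (adjusted p = 0.00649). After GC correction the differences were 0.26 for Jund (adjusted p = 0.194) and 0.27 for Zfpm1 (adjusted p = 0.214), so neither call held. The transcripts of both genes have a GC content of about 67% (67.2% for Jund and 66.8% for Zfpm1).

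Vegfb, a growth factor of the VEGF family, was measured at 58.8, 58.3 and 65.8 CPM in ruxo-wash against 53.6, 59.5 and 60.8 CPM, and at 17.9, 20.2 and 17.3 CPM in CHZ868-wash against 30.3, 34.2 and 37.2 CPM. The ruxolitinib groups overlapped and the CHZ868-wash libraries were all below their controls, with a difference of 0.94 (SE 0.142, adjusted p = 0.0154). The call was lost without CHZ868-wash library 3 (0.90, adjusted p = 0.0527) and after GC correction (0.71, adjusted p = 0.0751), and the value was 0.59 when DMSO-wash library 3 of the CHZ868 experiment was left out as well.

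A few genes had moderate effects in opposite directions in both experiments. Ass1, argininosuccinate synthase of arginine synthesis, was measured at 10.3, 11.3 and 11.4 CPM in ruxo-wash against 6.92, 8.52 and 8.75 CPM, and at 33.5, 32.5 and 36.1 CPM in CHZ868-wash against 45.3, 47.3 and 44 CPM. All ruxo-wash libraries were above and all CHZ868-wash libraries below their controls, with washout effects of 0.45 and -0.42 and a difference of 0.87 (adjusted p = 0.0237). Bmyc, a MYC family relative without the DNA-binding region, was measured at 47.6, 50.2 and 49.6 CPM in ruxo-wash against 41.7, 37.6 and 45.9 CPM, and at 6.36, 6.74 and 6.43 CPM in CHZ868-wash against 10.3, 9.75 and 9.78 CPM. Its groups did not overlap in either experiment either, and the difference was 0.83 (adjusted p = 0.0225). Both calls were kept in 3 of the 12 fits with a library left out and were lost after GC correction, which left the differences at 0.82 for Ass1 and 0.77 for Bmyc (adjusted p = 0.0508 and 0.0521). Ass1 reads may be shared with the pseudogene Gm5424, which is 99.5% identical over 73.1% of the transcript.

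The remaining protein-coding genes among the 12 largest positive differences were Hivep3, Chst12 and Tesk1, with differences of 0.90, 0.86 and 0.85. Their CHZ868 washout effects were -0.57, -0.82 and -0.75 and their ruxolitinib washout effects 0.34, 0.04 and 0.11. Hivep3 encodes a zinc finger protein, Chst12 a chondroitin sulfotransferase and Tesk1 a kinase that acts on cofilin. Their calls were kept in 2 or 3 of the 12 fits with a library left out and lost after GC correction, where the differences were 0.86 for Hivep3, 0.76 for Chst12 and 0.57 for Tesk1 (adjusted p = 0.0727, 0.126 and 0.194). Chst12 was at 0.56 when DMSO-wash library 3 of the CHZ868 experiment was left out as well.

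Among the 12 largest positive differences were also 3 further transcripts, of which 4930539J05Rik and AV099323 are annotated as antisense RNAs and Gm50037 is not in the annotation used. Gm50037 was listed at 0 in all 3 DMSO-wash libraries of the ruxolitinib experiment and at 6.16, 1.46 and 2.48 CPM in ruxo-wash, while it stood at 21.7, 17.1 and 18.5 CPM in CHZ868-wash against 11.4, 16 and 12.7 CPM. No fold is given against a group at 0, and its fitted difference of 4.48 (adjusted p = 0.00649) depends on the constant added before the log. With a larger constant the call of Gm50037 ended, at a difference of 1.49 with log2(CPM + 1) (adjusted p = 0.0773) and of 0.31 with log2(CPM + 5) (adjusted p = 0.503). 4930539J05Rik, antisense to Ube2d3, had a difference of 2.42 (adjusted p = 0.0371) at 1.41, 1.71 and 1.65 CPM in ruxo-wash against 0.164, 0.64 and 0.157 CPM, and 22.9, 20.8 and 19.1 CPM in CHZ868-wash against 20.5, 23.3 and 28.7 CPM. With log2(CPM + 5) the difference of 4930539J05Rik was 0.47 and not called (adjusted p = 0.114). AV099323 had a difference of 1.18, with a ruxolitinib washout effect of 0.87 and a CHZ868 washout effect of -0.31 (with log2(CPM + 5) the difference of AV099323 was 0.64, still called). For these 3 transcripts the ruxolitinib washout effect was the larger of both, and the calls of the last pair were kept in 3 of the 12 fits with a library left out.

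**Figure D3:**
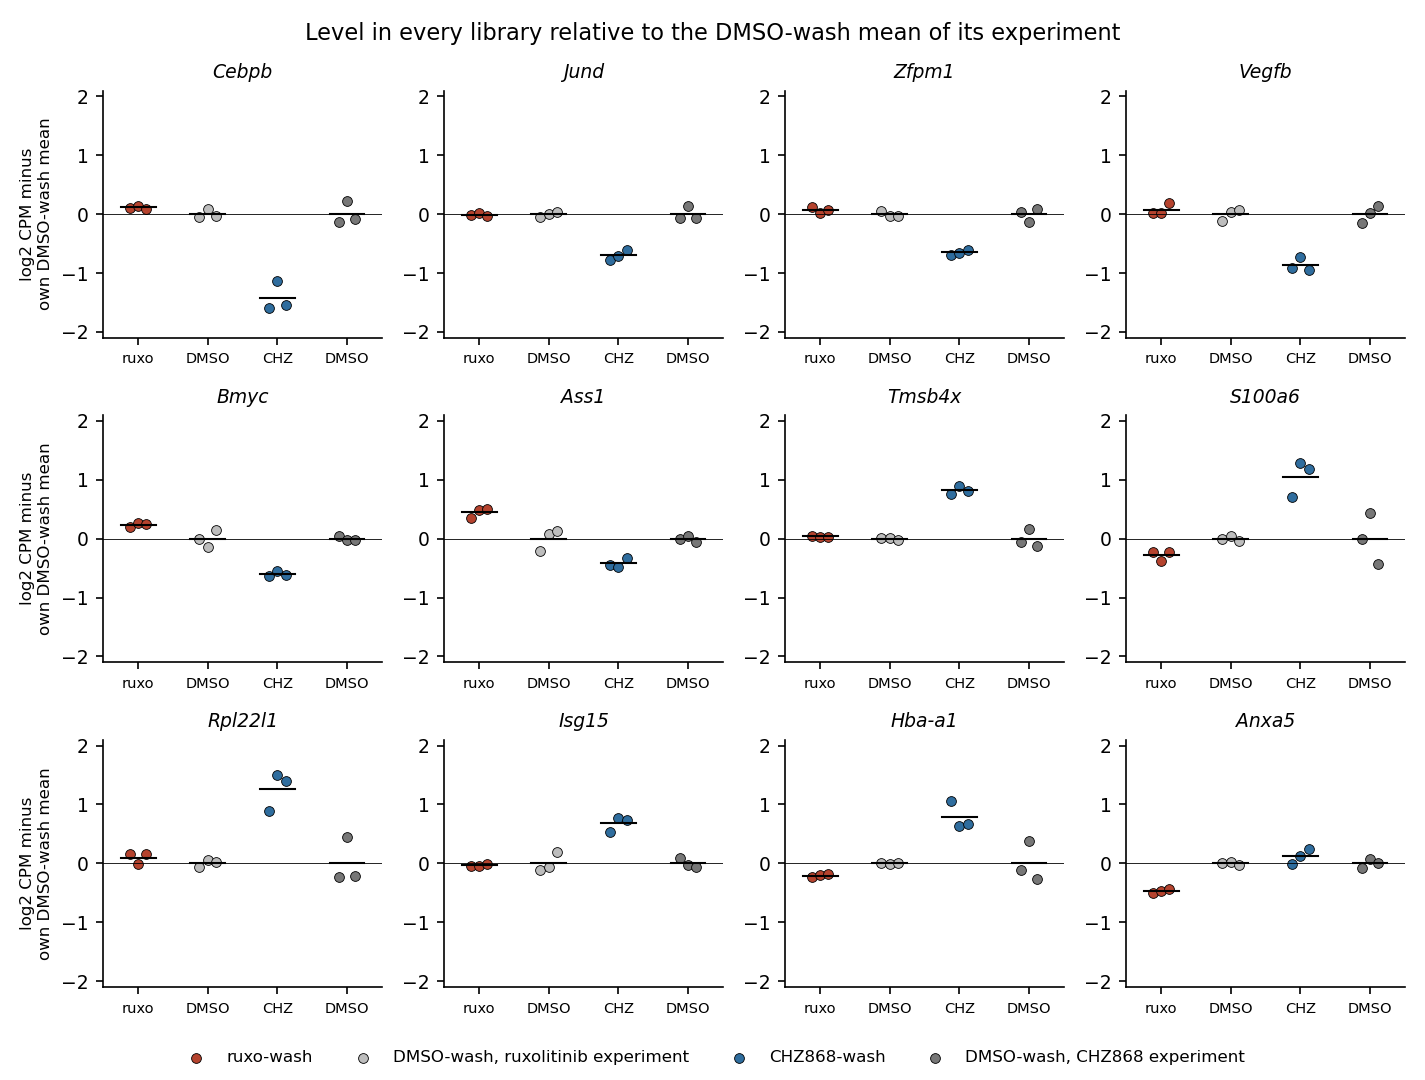
Level of 12 genes in every library, in log2 CPM minus the DMSO-wash mean of the same experiment, with points for libraries and bars for group means (3 libraries each). For Cebpb, Jund, Zfpm1 and Vegfb the CHZ868-wash points lie below 0 with the ruxo-wash points near 0, and for Tmsb4x and Rpl22l1 they lie above 0.

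On the lower side, Tmsb4x, which encodes the actin-sequestering peptide thymosin beta 4, had the smallest p of a protein-coding gene. It was measured at 5020, 4960 and 4950 CPM in ruxo-wash against 4860, 4900 and 4780 CPM, and at 812, 896 and 843 CPM in CHZ868-wash against 465, 541 and 441 CPM. Both inhibitor groups lay above their controls without overlap, by 0.04 after ruxolitinib and by 0.82 after CHZ868, which gave a difference of -0.78 (95% interval -1.02 to -0.55, adjusted p = 0.0144). The difference was -0.67 after GC correction (adjusted p = 0.00904). The call was lost without CHZ868-wash library 3 (-0.79, adjusted p = 0.0527).

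S100a6, a calcium-binding S100 protein, and Anxa5, the annexin that binds phosphatidylserine, were lower too. S100a6 was measured at 171, 154 and 172 CPM in ruxo-wash against 199, 206 and 196 CPM, and at 9.25, 14 and 13 CPM in CHZ868-wash against 5.59, 7.63 and 4.11 CPM. It lay below its controls in all ruxo-wash libraries and above them in all CHZ868-wash libraries, with a difference of -1.33 (adjusted p = 0.0329). Anxa5 was measured at 169, 173 and 177 CPM in ruxo-wash against 242, 244 and 235 CPM, and at 108, 119 and 129 CPM in CHZ868-wash against 103, 115 and 109 CPM. Here the ruxolitinib groups stood apart and the CHZ868 groups overlapped, and Anxa5 was 1 of the 19 called genes with the larger effect after ruxolitinib washout. Its washout effects were -0.48 and 0.12, and its difference of -0.60 (adjusted p = 0.0225) was also called after GC correction (-0.60, adjusted p = 0.0268), as was that of S100a6 (-1.26, adjusted p = 0.0431). The call of S100a6 was kept in 3 and that of Anxa5 in 5 of the 12 fits with a library left out.

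Rpl22l1, a paralog of the ribosomal protein RPL22, was measured at 772, 692 and 773 CPM in ruxo-wash against 663, 722 and 702 CPM, and at 83.1, 127 and 118 CPM in CHZ868-wash against 37.8, 61.3 and 38.5 CPM. Only the CHZ868 groups were separate, with a difference of -1.16 (adjusted p = 0.0371), kept as a call in 3 of the 12 fits with a library left out and lost after GC correction (-1.06, adjusted p = 0.0889). Its level differed between the DMSO-wash groups of both experiments by far more than by washout. Levels of the 2 tables were therefore not compared: over all genes the DMSO-wash levels had a rank correlation of 0.706, and 1607 genes (15.9%) lay 4-fold or more apart.

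The other genes among the 12 largest negative differences apart from noncoding transcripts were C4a, Hint3, 4933434E20Rik, Acad8, Ier3ip1 and Polr2k. The difference was -2.48 for C4a, annotated as a processed transcript of the complement C4 locus, which is 96% identical to C4b over its whole length. It was -1.34 for the nucleotide hydrolase gene Hint3, -1.17 for 4933434E20Rik, -1.11 for the acyl-CoA dehydrogenase gene Acad8, -1.06 for Ier3ip1 and -1.04 for the RNA polymerase subunit gene Polr2k, which has a near copy in Gm46136. The CHZ868 washout effect was positive in all 6 and the ruxolitinib washout effect negative in all 6. The call of 4933434E20Rik was kept in 10 of the 12 fits with a library left out and lost without DMSO-wash library 3 of the ruxolitinib experiment (-1.19, adjusted p = 0.05) and without CHZ868-wash library 3 (-1.13, adjusted p = 0.0527). The calls of the other 5 were kept in 2 to 6 of these fits. They were lost after GC correction, with differences near the uncorrected ones for C4a (-2.57, adjusted p = 0.0522) and Acad8 (-1.03, adjusted p = 0.0588) and smaller ones for Hint3 (-1.07, adjusted p = 0.145), Ier3ip1 (-0.90, adjusted p = 0.0660) and Polr2k (-0.71, adjusted p = 0.155). With log2(CPM + 5) the differences were -0.96 for C4a, -0.72 for Hint3 and -0.64 for 4933434E20Rik, all still called. With GC correction and without DMSO-wash library 3 of the CHZ868 experiment Polr2k was at -0.54 and not called.

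Gm35037, Gm22956, Gm28370 and Gm28875, annotated as noncoding, took the other places on the lower side. Gm35037 was listed at 0 in all 3 ruxo-wash libraries and at 1.77, 3.61 and 1.36 CPM in its DMSO-wash, while it stood at 12.4, 9.13 and 7.65 CPM in CHZ868-wash against 7.01, 5.83 and 5.92 CPM. No fold is given, and its fitted difference of -5.16 (adjusted p = 0.00186), the smallest p of all, depends on the added constant. The difference of Gm35037 was -0.90 with log2(CPM + 5) and still called (adjusted p = 0.0334). Gm22956, a small nuclear RNA, had a difference of -1.92, Gm28370 of -1.50 and Gm28875 of -1.12. These 3 had CHZ868 washout effects of 1.6, 1.26 and 0.94, and their calls were kept in 2 or 3 of the 12 fits with a library left out. After GC correction Gm22956 was at -1.20 (adjusted p = 0.171) and Gm28370 at -1.40 (adjusted p = 0.0745), no longer called, and Gm28875 at -1.07 (adjusted p = 0.0499). With log2(CPM + 5) the values were -0.90 for Gm22956, which was then not called, -0.77 for Gm28370 and -0.68 for Gm28875.

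None of 13 genes linked to JAK2 and STAT5 signaling was called for the difference (limma adjusted p from 0.0594 to 0.992), and 4 of them, Myc, Bcl2, Spp1 and Actg1, had an unadjusted p under 0.05. They comprise Pim1, Pim2, Id1, Tgm2, Myc, Cish, Socs2, Osm, Bcl2, Jak2, Serpina3g, Spp1 and Actg1. Tested within its own table, the ruxolitinib washout effect was called for Spp1 alone of the 13 (limma adjusted p = 0.0217). It was not called for Pim1, Pim2, Id1, Tgm2 and Cish (adjusted p = 0.659, 0.218, 0.197, 0.175 and 0.759). A permutation test that exchanged inhibitor and DMSO-wash labels within each experiment (400 arrangements, two-sided, smallest possible p = 0.005) gave the smallest p for Bcl2 and Actg1 (0.01 each, and 0.065 after adjustment over the 13 genes). This test is exact where neither inhibitor has an effect, which does not cover genes with equal effects other than 0.

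Pim1, a kinase gene induced by STAT5, was measured at 401, 419 and 412 CPM in ruxo-wash against 371, 397 and 386 CPM, and at 376, 360 and 351 CPM in CHZ868-wash against 360, 356 and 275 CPM. All ruxo-wash libraries lay above their controls, and the CHZ868 groups overlapped. The difference was -0.05 with a 95% interval of -0.32 to 0.22. It turned to 0.08 without DMSO-wash library 3 of the CHZ868 experiment, the library at 275 CPM.

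Pim2, its relative, was measured at 129, 123 and 124 CPM in ruxo-wash against 101, 102 and 92 CPM, and at 185, 160 and 148 CPM in CHZ868-wash against 169, 161 and 138 CPM. The ruxo-wash libraries were clear of their controls and the CHZ868-wash libraries were not, but the ruxolitinib washout effect was not called in its own table. The interval of its difference, -0.01 to 0.55, includes 0 and also the whole ruxolitinib washout effect of 0.35.

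Id1, an inhibitor of basic helix-loop-helix factors, was measured at 610, 619 and 625 CPM in ruxo-wash against 561, 565 and 553 CPM, and at 184, 232 and 225 CPM in CHZ868-wash against 219, 235 and 181 CPM. Tgm2, transglutaminase 2, was measured at 365, 371 and 365 CPM in ruxo-wash against 329, 331 and 326 CPM, and at 1020, 1030 and 1060 CPM in CHZ868-wash against 1090, 1120 and 939 CPM. For both genes the ruxolitinib groups were separate and the CHZ868 groups overlapped, but neither ruxolitinib washout effect was called in its own table. The intervals of the difference were -0.17 to 0.42 for Id1 and -0.03 to 0.37 for Tgm2. Without DMSO-wash library 3 of the CHZ868 experiment the difference of Tgm2 was 0.25 and was called (adjusted p = 0.0260).

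Cish, the STAT5 feedback inhibitor with the tandem motif shown above, was measured at 27.3, 27.6 and 27.4 CPM in ruxo-wash against 25.5, 23.6 and 26.3 CPM, and at 143, 130 and 128 CPM in CHZ868-wash against 137, 130 and 134 CPM. Its ruxo-wash libraries lay just above their controls, and its CHZ868 groups overlapped, with an interval of the difference of -0.09 to 0.34. Socs2, another feedback inhibitor, overlapped in both experiments (difference 0.09, interval -0.22 to 0.40). So did Osm, the cytokine oncostatin M (difference -0.35, interval -0.85 to 0.16).

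Myc, the growth regulator, was measured at 377, 376 and 367 CPM in ruxo-wash against 360, 390 and 388 CPM, and at 475, 463 and 478 CPM in CHZ868-wash against 636, 542 and 927 CPM. The ruxolitinib groups overlapped, and all CHZ868-wash libraries lay below their widely spread controls. The difference was 0.51 (interval 0.09 to 0.93, adjusted p = 0.171). It was 0.29 without DMSO-wash library 3 of the CHZ868 experiment, the library at 927 CPM (adjusted p = 0.0684), and without library 2 it was 0.68 and called (adjusted p = 0.0262).

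Bcl2, the founding inhibitor of apoptosis, was measured at 23.6, 25.4 and 24.5 CPM in ruxo-wash against 29.6, 28.5 and 29.9 CPM, and at 211, 223 and 222 CPM in CHZ868-wash against 202, 196 and 214 CPM. It lay below its controls after ruxolitinib washout, and the CHZ868 groups overlapped, with a difference of -0.36 (interval -0.55 to -0.16, adjusted p = 0.0594). Spp1, osteopontin, was measured at 370, 388 and 366 CPM in ruxo-wash against 531, 537 and 528 CPM, and at 156, 160 and 142 CPM in CHZ868-wash against 133, 135 and 199 CPM. The groups lay in the same way as those of Bcl2, with a difference of -0.50 (interval -0.86 to -0.13, adjusted p = 0.131). Within its own table the ruxolitinib washout effect of Spp1, a decrease of 0.505, was called (limma adjusted p = 0.0217). That of Bcl2 was not (adjusted p = 0.445). Both were called without DMSO-wash library 3 of the CHZ868 experiment, at -0.39 for Bcl2 (adjusted p = 0.0226) and -0.69 for Spp1 (adjusted p = 0.00228).

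Jak2 itself differed by -0.18 (interval -0.39 to 0.03) and the actin gene Actg1 by -0.26 (interval -0.46 to -0.06). Actg1 reads may be shared with 5 near copies of at least 95% identity. Serpina3g, a serpin gene, lay above its controls in both experiments, with washout effects of 0.17 and 0.17 and a difference of -0.002 (interval -0.18 to 0.17).

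**Figure D4:**
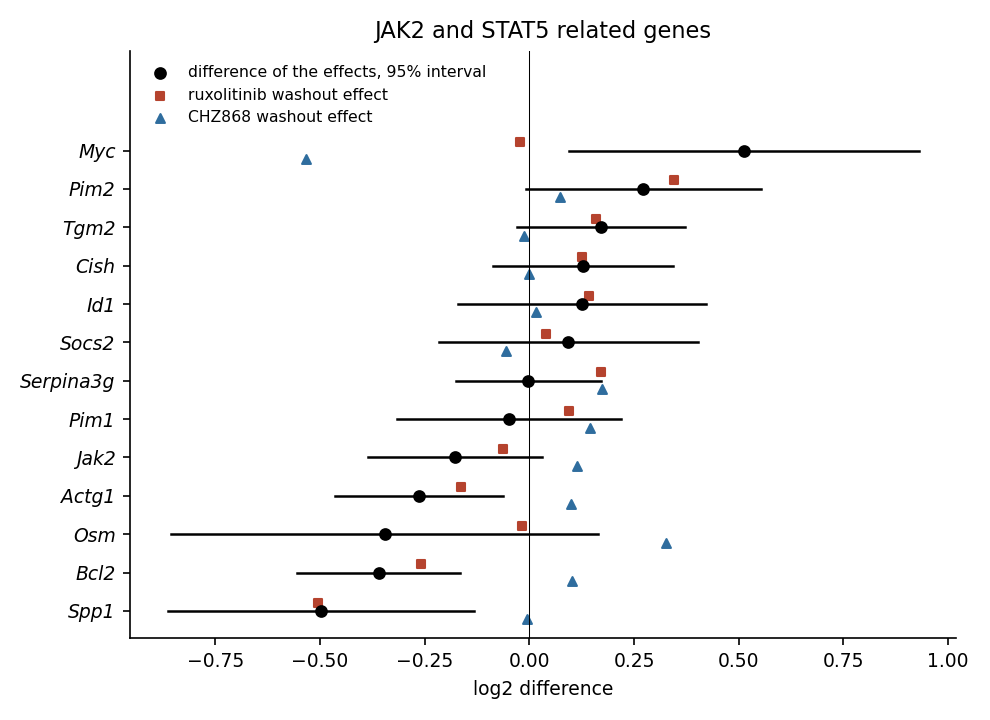
Ruxolitinib washout effect minus CHZ868 washout effect of 13 genes linked to JAK2 and STAT5 (log2), with 95% intervals from the fit of 12 libraries. None of the 13 has an adjusted p under 0.05, and the intervals of Myc, Bcl2, Spp1 and Actg1 leave out 0 before adjustment.

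Gene lists were described by the members called and the median difference, beside 98 genes called higher, 93 lower and a median of -0.01 over all genes. The lists were chosen with earlier results of these data known, so counts and shares within them are descriptions. Of 25 STAT5 target genes, 22 were measured, and 1 was called higher (Cebpb) and none lower, with a median of 0.11. The other measured members ranged from -0.53 for Spry2 to 0.63 for Gadd45g, and neither passed the test. Among 35 measured cytokine receptor chains, JAKs and STATs none was called (median 0.03), and likewise among 12 BCL2 family genes (median -0.08). At an unadjusted p under 0.05 there were 3 of the 35 (8.6%) and 3 of the 12 (25%), against 18.9% of all genes. Among the STAT5 target genes there were 7 of the 22 (31.8%) at that threshold. Of those 22 genes, 22.7% lay above 0 and 9.1% below 0 at that threshold, against 9.9% and 9.0% of all genes.

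Interferon-stimulated genes, a set of mostly antiviral genes, had 44 of 51 members measured, with 1 higher, 1 lower and a median of -0.17. At an unadjusted p under 0.05 there were 12 of the 44 (27.3%), against 18.9% of all genes. Of the 44, 20.5% lay below 0 and 6.8% above 0 at that threshold, against 9.0% and 9.9% of all genes. Isg15, a ubiquitin-like modifier, was measured at 44.2, 44 and 45.2 CPM in ruxo-wash against 41.9, 43.3 and 51.7 CPM, and at 21.6, 25.3 and 24.9 CPM in CHZ868-wash against 15.9, 14.5 and 14.1 CPM. The ruxolitinib groups overlapped and the CHZ868-wash libraries were higher than their controls, with a difference of -0.71 (adjusted p = 0.0371). The exonuclease gene Isg20 went the other way, with a difference of 0.63 (adjusted p = 0.0379), a CHZ868 washout effect of -0.44 and a ruxolitinib washout effect of 0.19. Both calls were kept in 2 or 3 of the 12 fits with a library left out, both were lost after GC correction, and Isg15 has a near copy in AC151275.1. In all, 30 members lay below 0 and 14 above, and 21 genes of MHC class I antigen presentation had a median of -0.01, with none called and 5 (23.8%) at an unadjusted p under 0.05.

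The 13 measured mitochondrially encoded genes all had a positive difference, with a median of 1.03. Of these, 2 were called (15.4%, against 1.90% of all genes), both ribosomal RNAs. At an unadjusted p under 0.05, 8 of the 13 (61.5%) lay above 0 and none below, against 9.9% and 9.0% of all genes. mt-Rnr2 was measured at 157, 137 and 139 CPM in ruxo-wash against 127, 137 and 130 CPM, and at 52.6, 80.9 and 87.6 CPM in CHZ868-wash against 179, 136 and 205 CPM. mt-Rnr1 was measured at 289, 251 and 232 CPM in ruxo-wash against 230, 248 and 238 CPM, and at 127, 156 and 177 CPM in CHZ868-wash against 283, 228 and 374 CPM. For both the ruxolitinib groups overlapped and the CHZ868 groups did not, with differences of 1.38 (adjusted p = 0.0225) and 1.03 (adjusted p = 0.0372), and their calls were kept in 5 and 2 of the 12 fits with a library left out.

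The mitochondrially encoded transcripts other than the ribosomal RNAs were summed in each library. They were most abundant in DMSO-wash library 3 of the CHZ868 experiment, at 5.59% of the CPM. They made up 2.22% and 2.81% in the other DMSO-wash libraries of that experiment. Their share was 1.72% to 2.08% in CHZ868-wash and 2.61% to 2.99% in the ruxolitinib experiment. Without that library the median of the 13 genes was 0.67. It was 1.37 after GC correction with all libraries.

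Nuclear genes of the same organelle did not share this direction. The 58 measured nuclear-encoded genes of oxidative phosphorylation had a median of -0.12 with none called, and 14 (24.1%) were at an unadjusted p under 0.05. The 77 cytosolic ribosomal protein genes had a median of -0.15 with 1 called, Rpl28, whose difference was 0.43 (adjusted p = 0.0461). Without DMSO-wash library 3 of the CHZ868 experiment these medians were -0.02 and -0.003, and without library 2 they were -0.18 and -0.25. After GC correction they were -0.06 and -0.10.

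For DNA replication genes, 46 of 46 were measured and 34 lay above 0, with a median of 0.17, and 15 (32.6%) were above 0 at an unadjusted p under 0.05, against 9.9% of all genes. The only one called was Pold2, a subunit of DNA polymerase delta. It was measured at 75.3, 85.4 and 77.1 CPM in ruxo-wash against 76.2, 84.2 and 73.4 CPM, and at 43.2, 45.8 and 47.3 CPM in CHZ868-wash against 67, 63.3 and 63.2 CPM. The ruxolitinib groups overlapped and the CHZ868 groups were separate, with a difference of 0.53 (adjusted p = 0.0371). The licensing factor Cdt1 (0.45), the polymerase subunit Pola2 (0.46) and the helicase subunit Mcm2 (0.28) missed the threshold (adjusted p = 0.0565, 0.0906 and 0.160). The median of the list was 0.22 and 0.16 without DMSO-wash libraries 3 and 2 of the CHZ868 experiment.

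The calls that follow, like those of Rpl28 and Pold2, were kept in 2 to 4 of the 12 fits with a library left out unless stated above, and after GC correction Plek (adjusted p = 0.0478) and Hba-a1 (adjusted p = 0.0499) were still called beside Tmsb4x, S100a6 and Anxa5. With that correction and without DMSO-wash library 3 of the CHZ868 experiment, the differences of Actr2, Plk1, Rela, Srm, Stard4, Tfrc, Tnip1 and Trp53inp1 were smaller by over 1.5 times, from -0.38 for Stard4 to 0.29 for Tnip1, and none of these 8 was called. Of 44 mitosis genes, 1 was called, the mitotic kinase gene Plk1 (difference 0.47, adjusted p = 0.0371), with a list median of 0.02. Among 46 genes of ribosome biogenesis and MYC targets, Srm, the spermidine synthase gene, was called (0.46, adjusted p = 0.0225), with a median of -0.02. Among 23 NF-kB subunits and feedback genes, the subunit gene Rela (0.59, adjusted p = 0.0371) and the A20-binding inhibitor gene Tnip1 (0.52, adjusted p = 0.0379) were called, with a median of 0.17, or 0.08 after GC correction. Of 34 ERK feedback and immediate early genes, Jund was called, with a median of 0.05. The shares called in these 4 lists, in the order given, were 2.27%, 2.17%, 8.70% and 2.94%, against 1.90% of all genes. At an unadjusted p under 0.05 they were 13.6%, 23.9%, 17.4% and 32.4%, against 18.9% of all genes.

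Genes of actin, actin-binding proteins and annexins held the most calls of any list, 2 higher and 5 lower of 42 measured, and their median was -0.0003. The share called was 16.7%, against 1.90% of all genes and 15.4% of the 13 mitochondrially encoded genes. At an unadjusted p under 0.05 there were 18 of the 42 (42.9%), against 18.9% of all genes. These shares are a description, because the list was chosen with earlier results of these data known. Its members include the S100 genes S100a6, S100a10 and S100a11 and the gene Plek. Beside Tmsb4x, S100a6 and Anxa5, the lower ones were Actr2 of the ARP2/3 complex (-0.51, adjusted p = 0.0225) and the pleckstrin gene Plek (-0.48, adjusted p = 0.0371). The higher ones were Tmsb10, a thymosin gene related to Tmsb4x (0.81, adjusted p = 0.0407), and the actin-capping subunit gene Capzb (0.34, adjusted p = 0.0486). Tmsb4x and Tmsb10 thus had differences of opposite sign. Tmsb10 is 99% identical to Gm9844 over 59.9% of its transcript.

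Heme, globin and erythroid genes had 2 members called lower of 20 measured, while the median was 0.14, or 0.09 after GC correction. Hba-a1, an alpha globin gene, was measured at 3220, 3280 and 3320 CPM in ruxo-wash against 3770, 3750 and 3810 CPM, and at 290, 216 and 220 CPM in CHZ868-wash against 129, 181 and 115 CPM. It lay below its controls after ruxolitinib washout and above them after CHZ868 washout, with a difference of -0.99 (adjusted p = 0.0371), and its reads may be shared with Hba-a2, which is 99.8% identical. Tfrc, the transferrin receptor gene, had a difference of -0.45 (adjusted p = 0.0371). In the same list Klf1 (0.56, adjusted p = 0.0594) and Nfe2 (0.44, adjusted p = 0.0516), transcription factors of the erythroid line, missed the threshold.

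Other lists had a single call or none. The sterol carrier gene Stard4 was lower (-0.62, adjusted p = 0.0483) among 31 genes of cholesterol and fatty acid synthesis (median 0.01), and Trp53inp1 was lower (-0.58, adjusted p = 0.0379) among 25 p53 target genes (median -0.08). The shares called were 3.23% and 4%, against 1.90% of all genes. At an unadjusted p under 0.05 they were 29.0% and 28.0%, against 18.9%. No member was called among 17 aminoacyl-tRNA synthetases (median 0.10), 26 genes of the ATF4 stress response and serine synthesis (0.08), 30 chaperone and unfolded protein response genes (0.09), 30 glycolysis and hypoxia genes (0.03) or 17 FOXO and PI3K-repressed genes (-0.13). At an unadjusted p under 0.05 these 5 lists held 2, 8, 12, 9 and 2 genes, or 11.8%, 30.8%, 40%, 30% and 11.8% of their members, against 18.9% of all genes. No replication-dependent histone gene of 24 was in both tables.

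**Figure D5:**
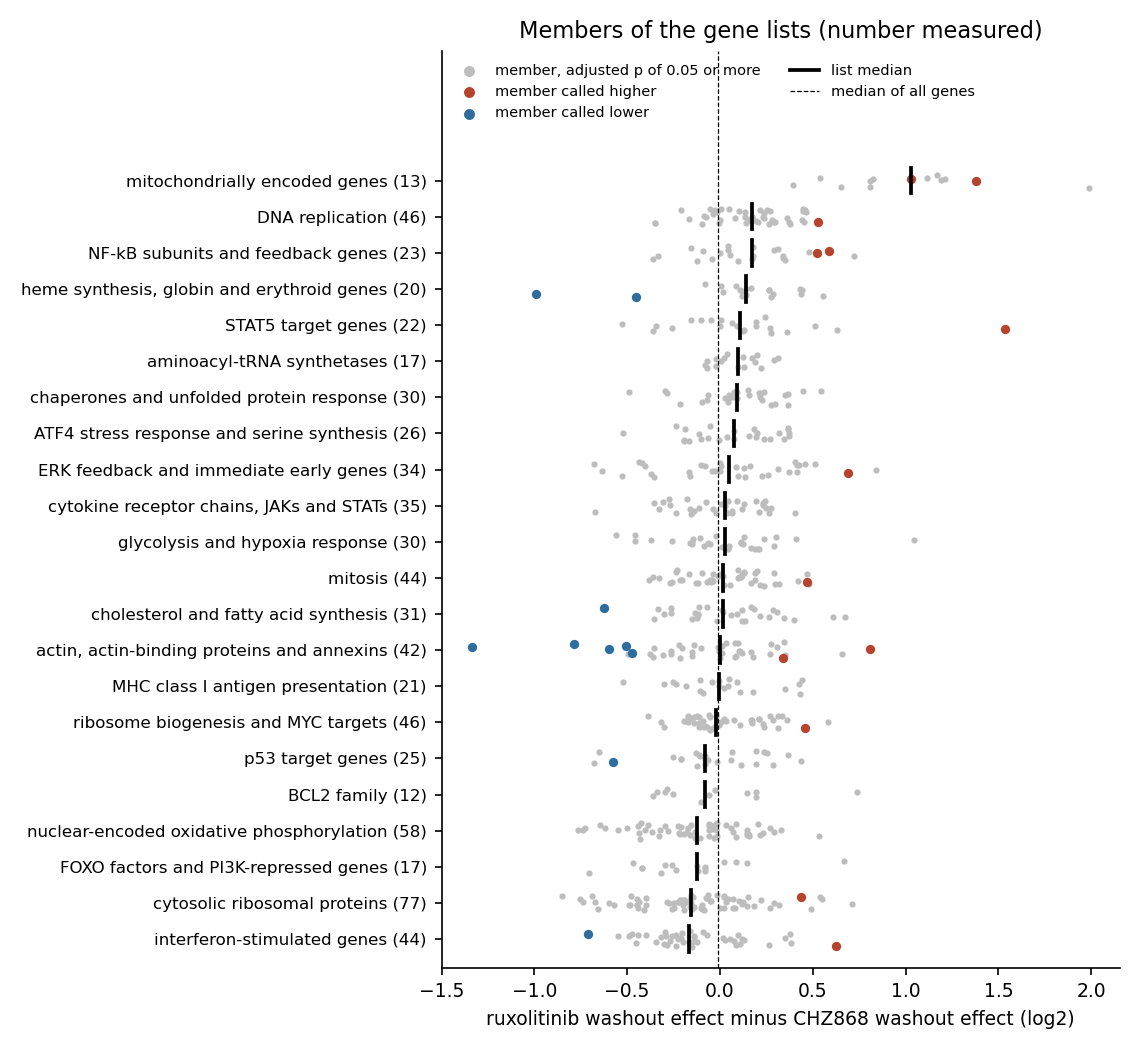
Ruxolitinib washout effect minus CHZ868 washout effect (log2) of the members of 22 gene lists, with the number measured in brackets, red and blue points for members called higher and lower, a black bar for the list median and a dashed line for the median of all genes. The 13 mitochondrially encoded genes all lie above 0, with a median of 1.03, and the other list medians lie between -0.17 and 0.17.

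Motifs were counted in the promoters of 75 of the 98 higher genes, 67 of the 93 lower genes and 7894 of all genes measured. TTCNNNGAA was present in 10.7% of the higher, 2.99% of the lower and 8.26% of all promoters. With a spacer of 2 bases, TTCNNGAA, the shares were 4%, 7.46% and 8.37%, and for the motif with a spacer of 4 bases 9.33%, 5.97% and 6.42%. The MYC-type E-box CACGTG was found in 10.7%, 10.4% and 12.2%, and the CRE sequence TGACGTCA in 5.33%, 2.99% and 3.90%. The endoplasmic reticulum stress element, by its usual letters, was in none of the called genes' promoters and in 0.165% of all. Both strands were searched, the STAT-type motifs were counted separately although a promoter can hold several, and matches are a description of the letters in these windows. The median GC content of the promoters was 65.7%, 60.7% and 62.0%.

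Marker genes were read in all groups as a check of the labelled cell type. Of 17 pro-B markers only Cd79a and Cd79b were in the tables, at a summed 21.2 to 32.2 CPM over the 12 libraries, and Vpreb1, Pax5 and Rag1 were not in them. Of 12 T and NK cell markers only Lck was listed (1.92 to 5.99 CPM). Myeloid and mast cell markers numbered 5 of 16 in the ruxolitinib table, at a summed 645 to 653 CPM in ruxo-wash and 595 to 617 CPM in DMSO-wash, and 3 of 16 in the CHZ868 table, at 80.1 to 84 CPM in CHZ868-wash and 52.7 to 79.4 CPM in DMSO-wash. Of 10 fibroblast and endothelial markers, Col1a1 and Pecam1 were in the ruxolitinib table (summed 68 to 71.7 CPM) and Pecam1 in the CHZ868 table (263 to 270 CPM in CHZ868-wash, 268 to 362 CPM in DMSO-wash). No marker was called for the difference, and the part of these cell types in the differences was not tested. In bulk libraries fewer cells expressing a gene and less RNA per cell cannot be told apart. The depth was 8150000 to 9880000 reads on listed genes per library in the CHZ868 experiment and is unknown in the ruxolitinib experiment.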

How the data were processed

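Per the labels, RNA of JAK2-V617F Ba/F3 cells was sequenced. According to the study's methods, the authors pseudo-aligned reads with kallisto to GRCm38, filtered genes on CPM, normalized by TMM in edgeR and fitted voom and limma models, while the submitters' processing notes list STAR 2.7.3a, edgeR 4.0.16 and GRCm39, and which of these made each table was not settled. Deposited values are on the log2 CPM scale and include a small added constant. Removing the constant gave whole reads in the CHZ868 table (100% of the low values), where the depth follows, but not in the ruxolitinib table (25.3% to 29.0%). CPM printed in the text have the constant taken off. Counting intervals are not given because the depth of 6 libraries is unknown.

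The 12 libraries of both washout tables were matched by gene symbol and fitted together with limma 3.58.1 (R 4.3.3), as 4 group means with a mean-variance trend. The difference of both washout effects was tested two-sided, with Benjamini-Hochberg adjustment over the 10078 genes. The study's voom needs counts, so the trend took its place. Single effects were called in fits of their own table. The method was tested on simulated data.

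Named genes were the 12 largest positive and 12 largest negative called differences, the 13 JAK2 and STAT5 genes, members of the described lists and the 5 smallest p-values. Members, lists and alternatives were chosen with earlier results of these data known. Positions and transcripts are GENCODE on GRCm38, promoters RefSeq, and near copies were found with blastn 2.17.0 (at least 95% identity over 50% of the transcript). Alternatives changed the variance model, scaling, added constant, filter, threshold, a GC and length correction, a replicate block and the libraries used. The tables of inhibitor-treated cells were not used here.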

Additional observations from a re-analysis of the deposited data

Results flagged for a closer look

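The test of the difference itself separated the ruxolitinib washout effect from the CHZ868 washout effect for 191 genes (limma, adjusted p under 0.05). Single genes are given here where the test also passed with each of the 12 libraries left out in turn. These were Cebpb, with a difference of 1.54, Zfpm1 (0.721), Jund (0.691), Gm50037 (4.48) and Gm35037 (-5.16). The last pair had a group listed at 0 in every library, so their differences depend on the constant added before the log. With log2(CPM + 5) Gm50037 was at 0.307 and not called (adjusted p = 0.503), while the difference of Gm35037 was -0.899 and still called (adjusted p = 0.0334). After correction for GC content and length, Cebpb and Gm35037 were still called, Zfpm1 and Jund were not, and Gm50037 could not be corrected because the annotation holds no sequence for it. The correction also takes out washout effects that follow GC content or length.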

How the results depend on the processing

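Over 12 libraries with a depth known for only 6 of them, the number of genes called, 191, depended on the variance model, the correction and single libraries. It was 14 without the mean-variance trend, 345 with variances of each experiment and 2172 with array weights, whose estimation did not converge (DMSO-wash library 1 of the CHZ868 experiment received a weight of 31.1). It was 32 after GC and length correction, 94 with an absolute difference of at least 0.58 and 4 at an adjusted p under 0.01. With a library left out it ranged from 5 to 628. Robust fitting, other scalings, added constants and filters gave 197 to 264, all with the same direction for the named genes apart from those given next. Matching symbols through synonyms (194 genes) and GC correction with DMSO-wash library 3 of the CHZ868 experiment left out (108 genes) were chosen after seeing the data. Causes of these shifts were not tested.

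The replicate block (replicate number within each experiment) left 6 genes, and 5 together with GC and length correction. The deviations of each library from its group mean, over genes, were correlated between same-numbered inhibitor and DMSO-wash libraries. These correlations were 0.00729, -0.0589 and 0.0236 in the ruxolitinib experiment and -0.0326, 0.0686 and -0.0568 in the CHZ868 experiment. CHZ868-wash library 1 stood at -0.106 with DMSO-wash library 2 and at 0.105 with DMSO-wash library 3. Whether same-numbered libraries were handled together was not tested.

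With array weights the difference was 0.103 for Pim1 and 0.0369 for Osm, both of changed sign, and Pim2 (0.443), Tgm2 (0.219), Myc (0.409), Bcl2 (-0.386), Spp1 (-0.677) and Actg1 (-0.181) passed the threshold. Bcl2 passed it with quantile normalization (-0.386), and Spp1 (-0.542) and Actg1 (-0.261) with GC correction and that library left out. The difference of Serpina3g changed sign at a larger added constant (0.000162). With a library left out, the difference ranged from -0.116 to 0.0782 for Pim1, 0.122 to 0.249 for Tgm2, 0.293 to 0.679 for Myc, -0.394 to -0.333 for Bcl2, -0.689 to -0.398 for Spp1 and -0.0507 to 0.0244 for Serpina3g. Over all named genes and alternatives, 981 values kept sign and side of the threshold, 518 lost the call, 13 gained it and 10 changed sign.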
